A study of Arabidopsis thaliana with 4 samples.

Results

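The genes described here are the Aux/IAA family and the GH3 genes of Arabidopsis thaliana, chosen as a list of 37 locus IDs that comprises 29 Aux/IAA and 8 GH3 genes. Of these, 34 (27 Aux/IAA and 7 GH3) were among the 20511 nuclear genes of the deposited matrix, while IAA15, IAA34 and GH3.4 were not analysed here. Expression was measured in single protoplasts, cells freed of their walls by enzymes, from root tips of lbd_quad plants, which carry mutations in lbd6, lbd36, lbd12 and lbd15, and of WT plants. LBD genes encode plant-specific DNA-binding proteins. Plants of both genotypes were 7 days old when the tip of the root was cut off, and were collected 16 h later, so every library comes from regenerating tips and no uncut root is among the samples. There were 2 libraries of each genotype. The labels do not say how many plants entered a library, nor that the 2 libraries of a genotype came from separate plants, so p-values measure the spread between these libraries, which may be technical.

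Auxin works by removing a block. Aux/IAA proteins sit on ARF transcription factors and recruit TOPLESS co-repressors; when auxin is present, the receptors TIR1 and AFB1 to AFB5 bind a short stretch of the Aux/IAA protein, its degron, and the SCF ubiquitin ligase marks the Aux/IAA for destruction, which frees the ARF. Many Aux/IAA genes are themselves switched on by the ARFs they hold back, and so are several GH3 genes, whose enzymes join auxin to amino acids and so lower free auxin. Both families are therefore read in roots as early auxin response genes and as brakes on the response.

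The degron is the sequence on which this mechanism turns, and its coding sequence is shown for the 4 Aux/IAA genes with the highest level over all cells, for IAA27, whose level in phloem-like cells is described further on, and for IAA31, which lacks the core. Each stretch is 39 bases of the coding strand read 5′ to 3′ from the RefSeq annotation of TAIR10.1, matched by locus ID, and the capitals mark the 15 bases that encode the 5 core residues.
IAA17 (AT1G04250), on chromosome 1, + strand: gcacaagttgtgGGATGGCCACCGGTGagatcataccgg
IAA9 (AT5G65670), on chromosome 5, + strand: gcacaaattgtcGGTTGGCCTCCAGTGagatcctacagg
IAA7 (AT3G23050), on chromosome 3, + strand: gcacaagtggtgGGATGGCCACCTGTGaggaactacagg
IAA28 (AT5G25890), on chromosome 5, + strand: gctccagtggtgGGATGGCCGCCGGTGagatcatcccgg
IAA27 (AT4G29080), on chromosome 4, - strand: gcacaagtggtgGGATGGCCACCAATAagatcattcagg
IAA31 (AT3G17600), on chromosome 3, - strand: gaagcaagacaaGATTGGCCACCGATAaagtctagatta
The core was taken as glycine, tryptophan and a pair of prolines followed by valine, isoleucine or leucine. It was found in 23 of the 29 Aux/IAA loci and was not found in IAA20, IAA30, IAA31, IAA32, IAA33 and IAA34, a group known as the non-canonical Aux/IAA proteins. In IAA31 the aligned stretch matches 3 of the 5 residues of the form that ends in valine. Of the 22 genes with a core and a row in the matrix, 12 reached a mean of 0.1 UMIs per 10000 over the 4 libraries, with a median level of 0.211 and a range of 0.00940 to 2.92. Of the 5 without a core, 1 (IAA30) did, with a median of 0.0222 and a range of 0.00895 to 0.194. A UMI (unique molecular identifier) tags 1 captured transcript, and a level is the mean over cells of a gene's UMIs per 10000 UMIs of the cell. It counts 3′ ends and does not scale with transcript length, but how well transcripts of different genes are captured was not measured.

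After quality filters, the lbd_quad libraries held 844 and 2876 cells and the WT libraries 1746 and 5061, with library totals between 7051891 and 21280667 UMIs. The first lbd_quad library was deeper per cell (median 6364 UMIs) than the other 3 (2090 to 2521.5). Of 10518 barcodes, 9 occurred in more than 1 library. LBD12, one of the mutated genes, had 0.336 and 0.142 UMIs per 10000 in lbd_quad libraries, against 2.55 and 1.27 in WT libraries. LBD15 (0.0559 and 0.0682 in lbd_quad, against 0.0426 and 0.0747 in WT), LBD36 (0.0223 and 0.0270, against 0.0147 and 0.0214) and LBD6 (0.00294 and 0.00801, against 0.00383 and 0.00576) were not lower in lbd_quad. The labels do not give the kind of mutation, and a mutated gene can still be transcribed. The cells formed 31 clusters, built without the auxin genes and the mutated LBD genes, and 15 of them were named from marker genes, which gave 8 classes. Another 5108 cells in 16 clusters stayed unnamed, several of them made almost wholly of 1 library or genotype: 188 of the 193 cells of 1 unnamed cluster came from the first WT library.

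The leading Aux/IAA gene differed between classes, and the order of levels is a description, since the clusters were built from the same cells. IAA7 (AXR2), known from mutants with altered gravitropism and root hairs, led the root cap-like class, at 11.4 and 16.0 UMIs per 10000 in lbd_quad libraries, against 12.01 and 8.90 in WT libraries. The next highest class for IAA7 was cortex-like, at 1.72 and 2.67 in lbd_quad and 3.59 and 3.34 in WT, so every root cap-like value lay above every cortex-like one, and the lowest class was pericycle-like, with a mean of 0.342. Within the root cap-like class IAA7 stood at 12.9 and 16.7 in lbd_quad, against 14.6 and 11.2 in WT, in the cluster marked by BFN1, a nuclease gene of dying root cap cells. In the smaller root cap-like cluster it was at 3.9 and 0 in lbd_quad libraries, the second from 1 cell, and at 5.69 and 4.79 in WT libraries. IAA19 (MSG2), known for its part in tropic growth, was also highest in root cap-like cells. It stood at 2.72 and 3.96 in lbd_quad, against 1.45 and 1.30 in WT. These values rest on 18 and 26 lbd_quad cells, too few for a test of the class. At a finer clustering, 1 root cap-like cluster held 13 and 23 lbd_quad cells but 0 and 0 WT cells. Another held 2 and 3 lbd_quad cells against 66 and 140 WT cells. The root cap-like values of IAA7 and IAA19 thus set partly unlike cells side by side.

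IAA17 (AXR3), another regulator of root hairs and gravitropism, was the leading member in cortex-like cells, at 8.05 and 4.26 in lbd_quad libraries and 7.80 and 4.65 in WT libraries. It also led the hair-cell epidermis-like class (5.47 and 3.595, against 3.25 and 2.57) and the endodermis-like class (3.78 and 1.71, against 3.85 and 2.51). In each of these classes the first library of a genotype read higher than the second, so the order of neighbouring classes does not exceed the spread between libraries. The hair-cell epidermis-like values rest on 3 and 36 lbd_quad cells, against 70 and 333 in WT, too few for a test of the class. In those 3 cells, 3 UMIs would give 0.964. IAA14 (SLR, AT4G14550), whose stabilised form blocks lateral root initiation, was highest in hair-cell epidermis-like cells, at 1.37 and 2.61, against 1.16 and 2.65, and its lowest value there lay below the highest in cortex-like cells.

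IAA9 had the highest mean over libraries of the members in the vascular and pericycle-like classes. It stood at 7.43 and 5.95 UMIs per 10000 in phloem-like cells of lbd_quad and 7.09 and 6.78 in those of WT, at 4.86 and 5.24 against 5.49 and 5.71 in xylem-like cells, and at 4.22 and 3.97 against 2.77 and 2.93 in pericycle-like cells. Every phloem-like value of IAA9 lay above every xylem-like one. IAA28, a repressor of lateral root founder cell specification, was likewise highest in phloem-like cells (6.83 and 3.51, against 5.92 and 3.92) and low in root cap-like and niche-like cells, with means of 0.165 and 0.103. IAA8 (AT2G22670) was highest on average in xylem-like cells, at 3.24 and 5.93 in lbd_quad, against 3.85 and 4.37 in WT. In the second lbd_quad library it stood above IAA9 there. Its lowest xylem-like value lay below its phloem-like level of 3.71 in the second lbd_quad library.

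Several Aux/IAA genes that were scarce over all cells had their highest mean in xylem-like or niche-like cells. IAA29 (AT4G32280) had 1.34, 0.720 and 1.35 UMIs per 10000 in xylem-like cells of the second lbd_quad and both WT libraries, and 0 UMIs in the 9 xylem-like cells of the first lbd_quad library, where 3 UMIs would give 0.321. A xylem-like cluster of 47 cells had secondary wall genes (IRX1, IRX3, XCP1 and XCP2) raised. There IAA29 reached 3.51 in the second lbd_quad library (25 cells), against 6.47 and 3.97 in WT (3 and 17 cells). The first lbd_quad library gave that cluster 2 cells, which are among its 9 without a UMI of IAA29. IAA6 was also highest on average in xylem-like cells, at 0.108 and 0.237 in lbd_quad, against 0.163 and 0.592 in WT, where the values of the first library of each genotype rest on 1 and 2 UMIs and lie below the level that 3 UMIs would give. IAA31 stood at 0.340 and 0.262 in xylem-like cells of lbd_quad, against 1.04 and 0.177 in those of WT, and these values overlap with its phloem-like level of 0.263 in the first lbd_quad library. IAA20, which in the embryo and root acts in vascular patterning, had 0.810 in niche-like cells of the second lbd_quad library and 0.437 in those of the second WT library.

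IAA33 (AT5G57420), a non-canonical member known for holding root stem cell identity, was among the 10 leading genes of the cluster named quiescent centre and stem cell niche-like from WOX5, PLT1, PLT2, PLT3 and BBM. That cluster has no cells from the first WT library and 4 from the first lbd_quad library, so no genotype comparison was made in it. None of those markers is among its 10 leading genes, and it also raised 2 root cap markers. Its cells hold 5.84 times the median UMIs of their libraries. IAA33 stood there at 2.71 and 0.443 in lbd_quad libraries (10 and 65 UMIs), against 5.67 in the second WT library (551 UMIs), and its mean in any other named class was at most that of pericycle-like cells, where 2 UMIs were counted in all. At a coarser clustering no niche-like class was named, and IAA33 was highest in pericycle-like cells.

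**Figure D1:**
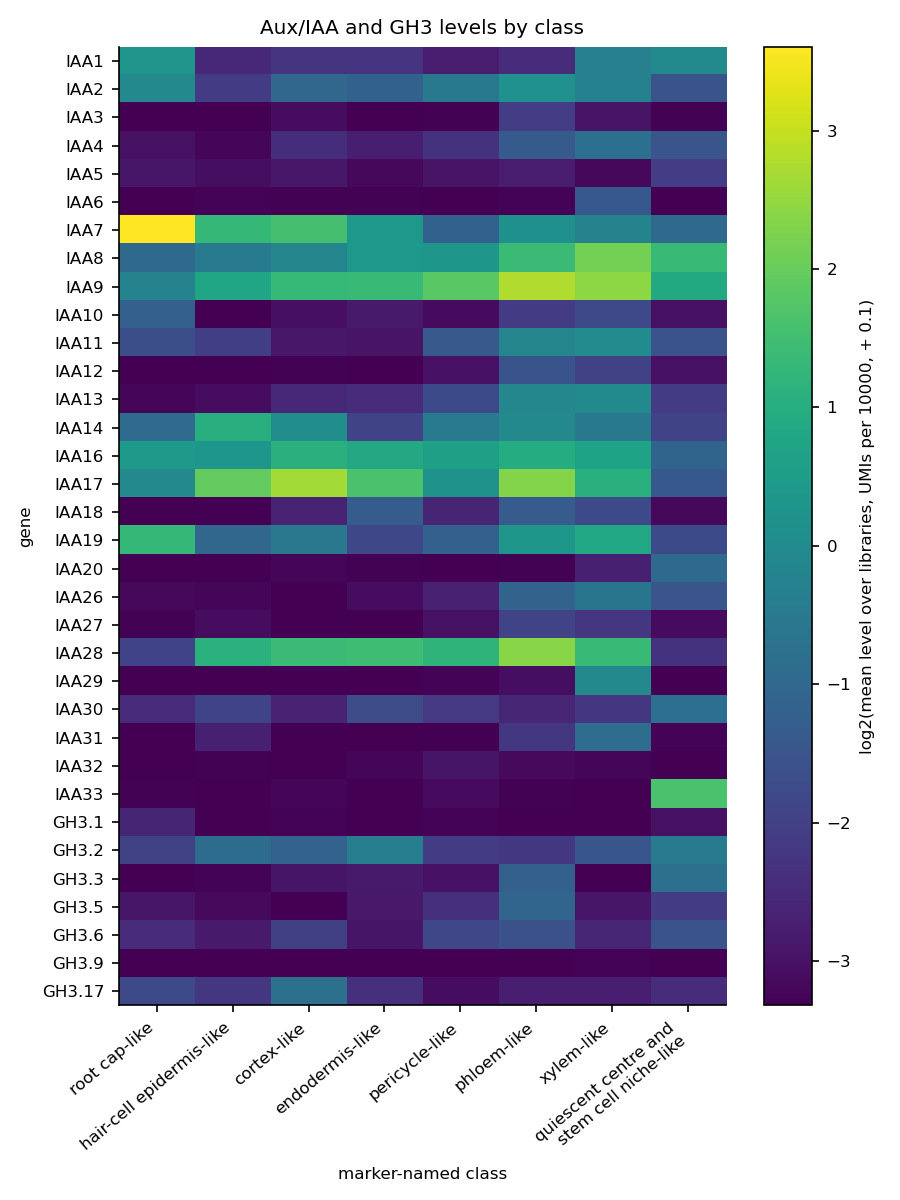
Mean level over libraries of the 34 Aux/IAA and GH3 genes (rows) in the 8 marker-named classes (columns), coloured by log2 of UMIs per 10000 plus 0.1. Single bright cells stand out for IAA7 in root cap-like and IAA33 in niche-like cells, and many scarce Aux/IAA genes are brightest in phloem-like or xylem-like cells.

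The GH3 genes, whose enzymes conjugate auxin, also differed in where they were highest. GH3.2 had its highest mean over libraries in endodermis-like cells, at 0.907 and 0.937 UMIs per 10000 in lbd_quad, against 0.469 and 0.430 in WT. That rank came from the lbd_quad libraries. In WT both cortex-like values, 0.511 and 0.522, lay above both endodermis-like ones. GH3.17 (AT1G28130), whose enzyme prefers glutamate, was highest in cortex-like cells, at 0.285 and 0.294 in lbd_quad, against 0.569 and 0.814 in WT. GH3.5 (AT4G27260) was highest in phloem-like cells, at 0.411 and 0.251 in lbd_quad, against 0.364 and 0.503 in WT. GH3.3 (AT2G23170) was the leading gene of a phloem-like cluster of 201 cells, 61 from the second lbd_quad library, 138 from the second WT library and 2 from the first WT library. It stood there at 2.85 in the second lbd_quad library, against 4.12 in the second WT library, and IAA2, also highest in that cluster, stood at 2.08 in lbd_quad, against 4.22 in WT. That cluster was named from SUC2, SMXL5 and OPS, none of which is among its 10 leading genes, and its cells hold 4.40 times the median UMIs of their libraries. GH3.1 and GH3.9 were near the limit of detection, with 46 and 9 UMIs in all libraries. The highest class was the same for 12 of the 16 genes with a mean of at least 0.1 when UMIs were summed over cells, for 14 in cells of at least 2000 UMIs, and for 13 at either a coarser or a finer clustering.

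Over all cells, no Aux/IAA or GH3 gene differed between genotypes past an adjusted p of 0.05. The test (limma on log2 of the level plus 0.1, Benjamini-Hochberg adjustment over 9511 genes) called 0.389% of all genes, and 16 of the 34 genes passed its filter of a mean of 0.1. The smallest adjusted p among them was 0.684, and no member had an unadjusted p under 0.05. In these whole-library values, fewer cells of a type and less RNA per cell cannot be told apart. Values with the cluster makeup held at its mean over the libraries are therefore given beside those it moves. They use the 25 of 31 clusters with a cell in every library, some with 1 cell in a library. The other clusters are left out, so a change mixes their loss with the fixed makeup. Log2 differences, lbd_quad over WT, were below 0 for 12 of the 16 and above 0 for 4, with a median of -0.19, while the median over all 9511 genes was 0.01. Both lbd_quad libraries lay below both WT libraries for 4 of the 16, against 17.8% of all genes, and above for 0 of the 16, against 19.2% of all genes. Those 4 were IAA28, IAA19, GH3.17 and IAA2.

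IAA28 had 1.33 and 1.45 UMIs per 10000 over all cells of lbd_quad, against 2.48 and 1.87 in WT. The groups do not overlap, and the log2 difference was -0.60 (SE 0.29, adjusted p 0.69), or -0.31 with cluster makeup held constant. IAA19 had 0.364 and 0.574 in lbd_quad, against 0.593 and 0.784 in WT, where the nearest libraries almost touch (log2 difference -0.48, SE 0.30, adjusted p 0.80). For IAA19 the difference was -0.10 with cluster makeup held constant, -0.21 without the first lbd_quad library, -0.75 without the second and -0.31 without the second WT library. GH3.17 had 0.160 in both lbd_quad libraries, against 0.276 and 0.248 in WT (log2 difference -0.48, SE 0.23, adjusted p 0.684), which was -0.65 with cluster makeup held constant and -0.09 in cells of at least 2000 UMIs. IAA2 had 0.465 and 0.442 in lbd_quad, against 0.517 and 0.573 in WT, a narrow gap (log2 difference -0.22, SE 0.25).

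The other abundant genes overlapped between genotypes. IAA17 had 2.93 and 2.37 in lbd_quad, against 4.13 and 2.24 in WT, so that the WT libraries lay on either side of the mutant ones. IAA9 had 2.07 and 2.71, against 2.30 and 2.98, and IAA7 had 1.58 and 2.08, against 2.18 and 1.90. IAA16 had 0.941 and 1.48 in lbd_quad, against 1.32 and 1.72 in WT. For IAA14 the values were 0.501 and 0.883 in lbd_quad and 0.752 and 1.09 in WT, and for IAA1 they were 0.135 and 0.286 in lbd_quad and 0.282 and 0.424 in WT. The first lbd_quad library was the lowest of the 4 for each of the 5 genes named last. GH3.2 had 0.323 and 0.246 in lbd_quad, against 0.349 and 0.310 in WT. The 4 genes with a difference above 0 were IAA13 (0.124 and 0.348, against 0.138 and 0.189), IAA8 (0.786 and 1.75, against 0.841 and 1.13), IAA30 (0.242 and 0.183, against 0.201 and 0.149) and IAA11 (0.0977 and 0.380, against 0.102 and 0.312). Their log2 differences were between 0.10 and 0.27, and in 3 of them the 2 lbd_quad libraries bracket both WT libraries.

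**Figure D2:**
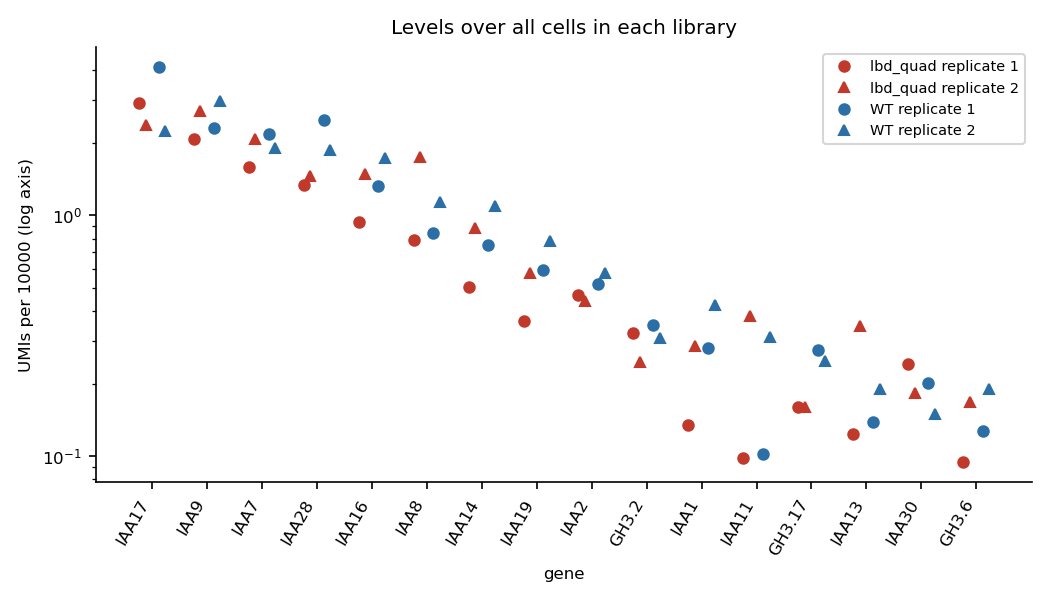
Level of the 16 genes that passed the filter over all cells, in UMIs per 10000 on a log axis, with 1 point per library (red lbd_quad, blue WT, circles replicate 1, triangles replicate 2). For most genes the red and blue points interleave; IAA28, IAA19, GH3.17 and IAA2 are the genes whose red points lie below both blue ones.

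Within cortex-like cells (52 and 401 lbd_quad cells, 222 and 415 WT cells) no member passed the threshold, with 0.542% of 8666 genes called. Of 13 members tested, 12 had a log2 difference below 0, with a median of -0.50, against 0.02 over all genes. IAA1 and GH3.6 reached the filter only through WT, so their direction was set by it, and of the 11 others 10 had a difference below 0. Both lbd_quad libraries lay below both WT libraries for 8 of the 13 (7 of those 11), against 16.9% of all genes. They lay above for 1 (IAA8), against 19.4%. The smallest adjusted p was 0.26, for IAA19. An unadjusted p under 0.05 was found for 5 of the 13 members, against 724 of all 8666 genes. GH3.6, admitted through WT, is among those 5.

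IAA19 had 0.435 and 0.183 UMIs per 10000 in cortex-like cells of lbd_quad, from 11 and 29 UMIs, against 0.964 and 0.767 in those of WT. The WT values lie well above the mutant ones, and the log2 difference was -1.30 (SE 0.40), or -0.84 without the second lbd_quad library. GH3.2 had 0.287 and 0.0921 in lbd_quad, against 0.511 and 0.522 in WT (log2 difference -1.18, SE 0.42, adjusted p 0.393), or -0.67 without the second lbd_quad library. GH3.17 had 0.285 and 0.294, against 0.569 and 0.814 (-1.01, SE 0.36, adjusted p 0.393), and GH3.6, which also conjugates auxin, had 0.103 and 0.0351, against 0.273 and 0.191, with no test read since it was admitted through WT. None of these groups overlap. IAA2 had 0.378 and 0.121, against 0.575 and 0.495 (-0.96, SE 0.43), or -1.52 without the first lbd_quad library and -0.41 without the second. The 2 cortex-like clusters were mixed unequally: 1 of them made up 40.4% and 32.7% of the class in lbd_quad libraries, against 82.0% and 34.5% in WT libraries. In that cluster IAA19 stood at 0.159 and 0.101 in lbd_quad, against 1.07 and 0.846 in WT, and in the other at 0.622 and 0.222, against 0.486 and 0.726.

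Endodermis-like cells (43 and 206 in lbd_quad, 259 and 455 in WT) showed no common direction, with 1.03% of 8551 genes called and no member among them. Of 13 members tested, 6 had a log2 difference above 0 and 7 below, with a median of -0.24, against -0.01 over all genes. Both lbd_quad libraries lay above both WT libraries for IAA8, IAA9, IAA18 and GH3.2, which is 4 of 13 against 17.5% of all genes. They lay below for IAA1, IAA14, IAA16 and IAA28, 4 of 13 against 18.4%. Of the 11 members above the filter in both genotypes, 4 lay above and 2 below. IAA14 was at 0 and 0.0794 in lbd_quad, against 0.280 and 0.306 in WT, and IAA1 was at 0 and 0.0568, against 0.190 and 0.182. Both genes reached the filter only through WT, which set their direction. Both zeros come from the 43 cells of the first lbd_quad library, where 3 UMIs would give 0.0855, and the fitted differences (-1.55 and -1.19) depend on the pseudocount. They were -1.97 and -1.52 without the second lbd_quad library, which leaves only those zeros, and -1.13 and -0.87 without the first. IAA28 had 2.65 and 1.30 in lbd_quad, against 3.59 and 2.99 in WT (-0.78, SE 0.39, adjusted p 0.652). IAA18, known from a stabilising mutation that blocks lateral roots, had 0.329 and 0.468 in lbd_quad, against 0.237 and 0.173 in WT (0.70, SE 0.38). GH3.2 had 0.907 and 0.937 in lbd_quad, against 0.469 and 0.430 in WT, a log2 difference of 0.90 (SE 0.35, adjusted p 0.422), which was 0.08 with the mix of its 2 clusters held at the mean over libraries.

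In phloem-like cells (60 and 506 in lbd_quad, 123 and 911 in WT) 23 members were tested and none passed, with 0.0338% of 8883 genes called. Differences were above 0 for 12 and below 0 for 11, with a median of 0.02, against -0.04 over all genes. Both lbd_quad libraries lay above both WT libraries for IAA8, IAA13, IAA26 and IAA27 (4 of 23, against 16.5% of all genes) and below for IAA3, IAA7, IAA18, IAA19 and GH3.2 (5 of 23, against 19.0%). IAA3 and GH3.2 reached the filter only through WT and IAA27 and IAA31 only through lbd_quad. Of the 19 others, 10 had a difference above 0 and 9 below. For 3 of those 19 both lbd_quad libraries lay above both WT libraries, and for 3 below.

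IAA27 stood at 0.402 and 0.264 UMIs per 10000 in phloem-like cells of lbd_quad, from 20 and 26 UMIs, against 0.00743 and 0.0036 in those of WT, from 1 and 3 UMIs. Both mutant values are far above both WT values, but the gene was admitted through the lbd_quad libraries alone, so its values are given as a description. The log2 difference of level plus 0.1 was 2.02, and 0.40 or 4.45 with 1 or 0.01 added instead. Its level over all cells was 0.0609 and 0.101 in lbd_quad, against 0.0281 and 0.00509 in WT, under the filter. Most phloem-like UMIs came from 1 cluster, the largest of the class, at 0.484 and 0.461 in lbd_quad, against 0.0114 and 0.00517 in WT. That cluster of 896 cells raised 3 of 16 phloem markers (SUC2, SMXL5 and BAM3), none of them among its 10 leading genes. It made up 63.3% and 53.0% of phloem-like cells in lbd_quad and 65.0% and 56.0% in WT, so it weighs most in all phloem-like levels. At a finer clustering, clusters of 266 and 260 cells that share leading genes with it went unnamed. Another of 338 cells that does so kept the phloem name. In xylem-like cells IAA27 had 2 and 3 UMIs in lbd_quad, against 0 and 0 in WT. In an unnamed cluster of 78 cells led by GRP9 it stood at 1.71 and 2.27 in lbd_quad (8 and 34 cells). The WT values there were 1.21 and 0 (28 and 8 cells). IAA27 was at 0 UMIs in cortex-like and endodermis-like cells of every library.

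GH3.2 in phloem-like cells went the other way from endodermis-like ones, at 0.0176 and 0.0396 in lbd_quad, from 1 and 9 UMIs, against 0.204 and 0.208 in WT, from 5 and 49 UMIs. The groups do not overlap, but GH3.2 reached the filter in this class only through WT, so the log2 difference of -1.26 (SE 0.34) is a description. IAA8 was higher in phloem-like cells of lbd_quad, at 2.69 and 3.71, against 1.82 and 1.89 in WT (0.74, SE 0.30, adjusted p 0.625). In cortex-like cells IAA8 had 0.736 and 1.00 in lbd_quad, against 0.679 and 0.731 in WT, and there the ratio of its pooled, depth-scaled counts was 0.903, the other direction. GH3.3 was at 0 and 0.372, against 0.305 and 0.682, and the cluster it leads held no cells of the first lbd_quad library.

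**Figure D3:**
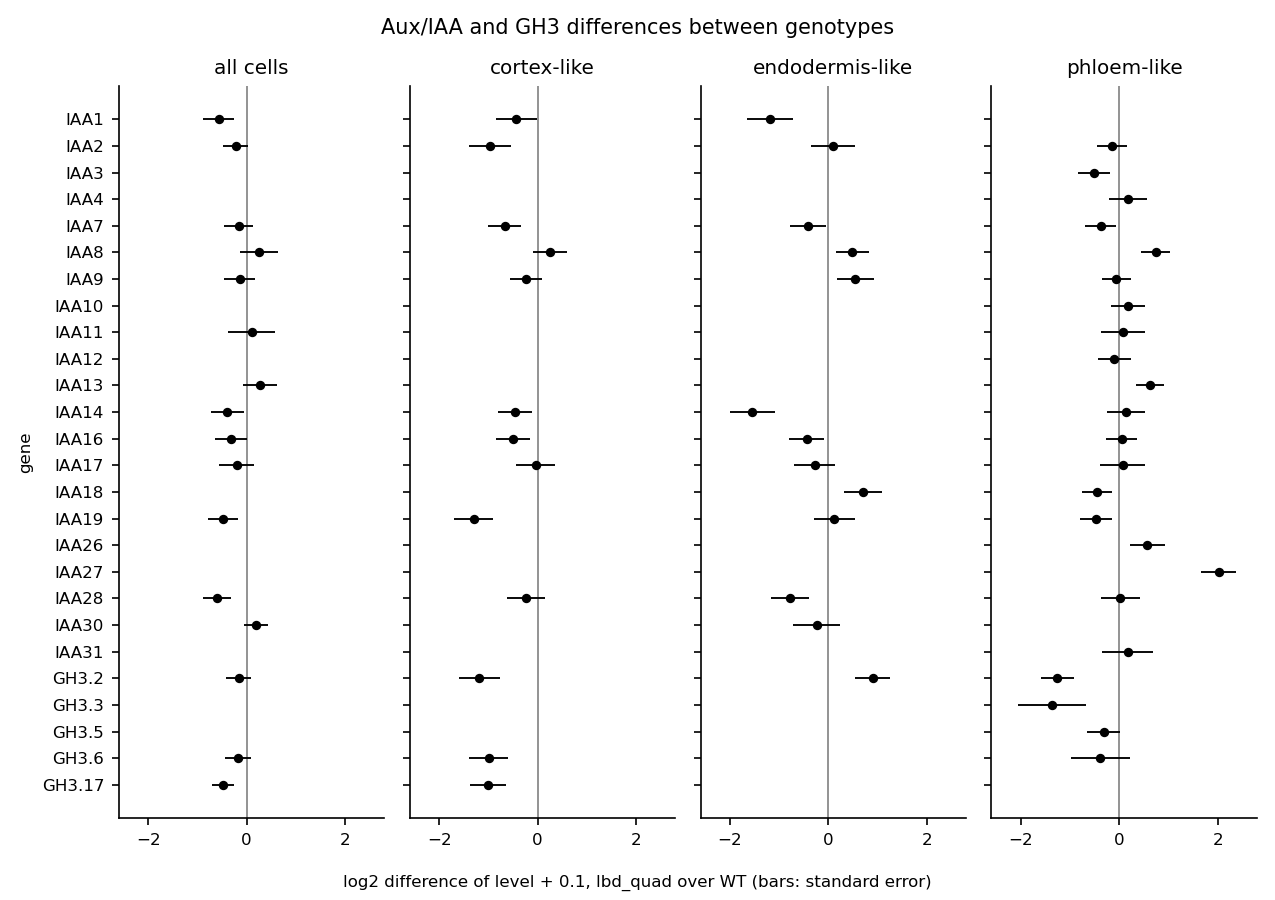
Log2 difference of level plus 0.1, lbd_quad over WT, with its standard error, for each Aux/IAA and GH3 gene tested over all cells and in 3 classes; a gap means that the gene did not pass the filter there. Points lie mostly left of 0 in cortex-like cells and on both sides in the other panels, with IAA27 in phloem-like cells furthest to the right at 2.02.

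Whether an effect of genotype differed between classes was tested directly, as the interaction of genotype and class over 9192 genes with the library as a random block. GH3.2 was the member that passed. Its genotype difference in endodermis-like minus that in phloem-like cells was 2.15 on the log2 scale (SE 0.43, adjusted p 0.0454), a comparison in which 0.435% of genes were called. Cortex-like minus endodermis-like, the difference for GH3.2 was -2.07 (SE 0.43, adjusted p 0.0611), with 0.283% of genes called. For cortex-like minus phloem-like it was 0.08 (adjusted p 0.995), with 0.152% of genes called, and its sign turns under other settings, as when the first lbd_quad library is left out (-0.55). No other of the 20 members tested passed in any pair. The nearest was IAA14, endodermis-like minus phloem-like, at -1.69 (SE 0.42, adjusted p 0.119), followed by IAA13 and IAA19, whose adjusted p-values were 0.427 (cortex-like minus phloem-like) and 0.406 (cortex-like minus endodermis-like).

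**Figure D4:**
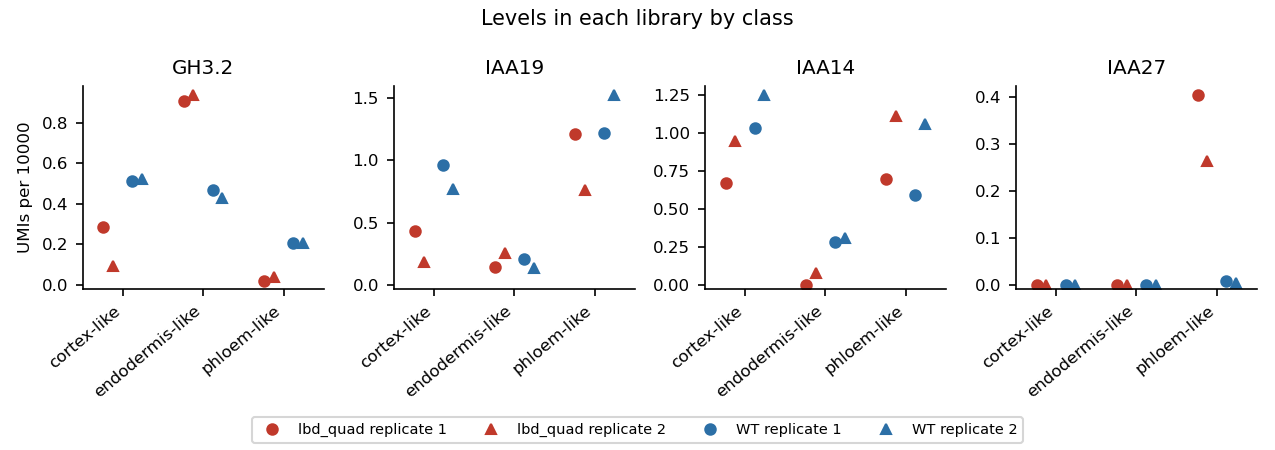
Level of GH3.2, IAA19, IAA14 and IAA27 in each library (red lbd_quad, blue WT, circles replicate 1, triangles replicate 2) in the 3 classes tested, in UMIs per 10000. For GH3.2 the red points lie above the blue ones in endodermis-like cells and below them in cortex-like and phloem-like cells.

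The endodermis-like class joined 2 clusters, and GH3.2 differed between them. A cluster marked by CASP1 to CASP5, ESB1 and PER64, genes of the Casparian strip barrier, made up 48.8% and 25.2% of endodermis-like cells in lbd_quad libraries (21 and 52 cells), against 4.63% and 14.3% in WT libraries (12 and 65 cells). Within it GH3.2 stood at 1.86 and 2.96 UMIs per 10000 in lbd_quad, against 1.57 and 1.03 in WT, so the groups did not overlap. The larger cluster (22 and 154 lbd_quad cells, 247 and 390 WT cells) raised SCR and MYB36 but no CASP gene. In it GH3.2 stood at 0 and 0.252 in lbd_quad, against 0.415 and 0.329 in WT, the opposite order. The 0 rests on those 22 cells. An alternative chosen after seeing the data held the makeup of each class at its mean over libraries. It left out the phloem-like cluster led by GH3.3, which has no cells of the first lbd_quad library. The GH3.2 difference of endodermis-like minus phloem-like cells was then 1.37 (adjusted p 0.387). It also missed the threshold without the first lbd_quad library (2.05, adjusted p 0.263), without the first WT library (2.21, adjusted p 1.0) and without the second WT library (2.09, adjusted p 0.51).

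**Figure D5:**
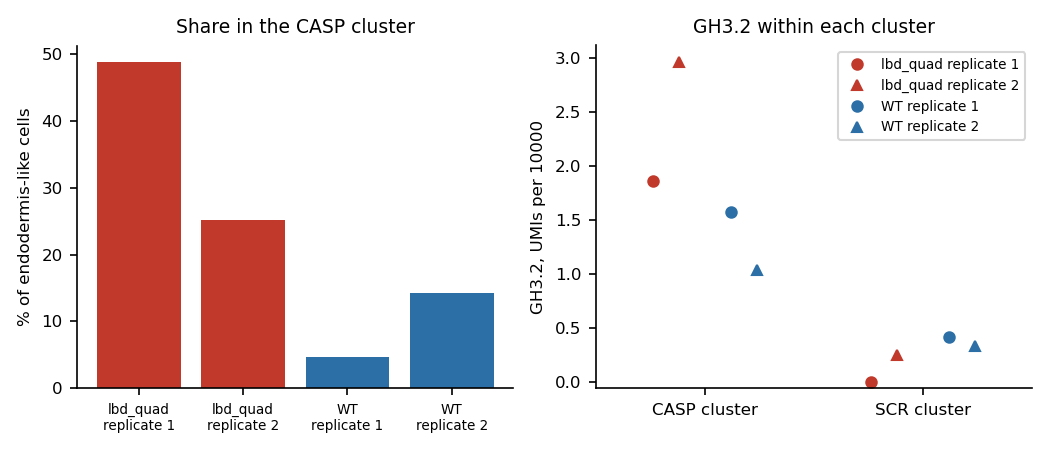
Left, share of endodermis-like cells that fell in the CASP cluster, in percent, 1 bar per library. Right, GH3.2 in UMIs per 10000 within the CASP cluster and within the larger SCR cluster, 1 point per library. The red lbd_quad points lie above the blue WT ones in the first and below them in the second. The lowest point of the second rests on 22 cells.

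The sequence upstream of GH3.2 and IAA19, the GH3 and the Aux/IAA gene with the largest differences in cortex-like cells, is shown because ARF proteins bind the auxin response element TGTCTC or its higher-affinity form TGTCGG. Each window is the 300 bases before the annotated gene start in RefSeq's TAIR10.1, 5′ to 3′ on the gene's strand, with motif letters of either strand in capitals.
GH3.2 (AT4G37390), chr4:17579318-17579617, + strand: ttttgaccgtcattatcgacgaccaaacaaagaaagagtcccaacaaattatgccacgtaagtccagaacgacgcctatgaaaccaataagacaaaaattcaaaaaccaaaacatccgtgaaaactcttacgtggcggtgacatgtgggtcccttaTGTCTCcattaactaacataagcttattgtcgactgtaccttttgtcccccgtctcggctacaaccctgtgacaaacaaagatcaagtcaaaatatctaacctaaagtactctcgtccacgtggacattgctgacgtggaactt
IAA19 (AT3G15540), chr3:5263701-5264000, + strand: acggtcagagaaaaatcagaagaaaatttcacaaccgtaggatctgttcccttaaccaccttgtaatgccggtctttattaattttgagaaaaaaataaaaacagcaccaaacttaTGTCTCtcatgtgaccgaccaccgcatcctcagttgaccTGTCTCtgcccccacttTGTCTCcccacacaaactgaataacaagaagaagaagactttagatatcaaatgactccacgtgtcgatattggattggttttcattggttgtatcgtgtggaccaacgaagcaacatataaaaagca
GH3.2 holds 1 TGTCTC, which starts 144 bases before the gene start, and IAA19 holds 3, at 184, 145 and 128 bases. Either motif or its reverse complement was found in 17 of the 37 windows of the listed genes (45.9%, 14 Aux/IAA and 3 GH3) and in 4735 of 27443 windows of protein-coding genes (17.3%). A match of letters is not a binding site.

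The rest of the auxin pathway, from receptors to downstream targets, was read from a list of 40 genes, of which 37 had a row (DAO2, UGT84B1 and LBD33 were not analysed here). Over all cells 18 passed the filter and none passed the test. Their log2 differences were above 0 for 5 and below for 13, with a median of -0.17, against 0.01 over all genes. Both lbd_quad libraries lay below both WT libraries for 6 (the receptor AFB1, the ligase subunit CUL1, the co-repressor TPR2, ARF16, ARF19 and the conjugate hydrolase ILR1), against 17.8% of all genes, and above for 0, against 19.2%. ARF16 and ARF19 reached the filter only through WT, and ARF5 only through lbd_quad. Among the 15 others, both lbd_quad libraries lay below both WT libraries for 4 and above for 0. ARF19, an activating ARF of lateral root formation, stood at 0.0505 and 0.0786 UMIs per 10000 in lbd_quad, against 0.113 and 0.206 in WT (log2 difference -0.64). Of those above the filter in both genotypes, ILR1 had the largest difference, at 0.732 and 0.565, against 0.982 and 0.941 (-0.51, SE 0.27, adjusted p 0.736).

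In cortex-like cells 16 of 19 pathway genes tested had a difference below 0 (median -0.40), in endodermis-like cells 11 of 14 (median -0.21) and in phloem-like cells 12 of 17 (median -0.16), with none past the threshold. Over all genes tested in these classes, 4190 of 8666, 4368 of 8551 and 4788 of 8883 were below 0 (medians 0.02, -0.01 and -0.04). Of the pathway genes tested, 5, 2 and 0 reached the filter only through WT. Among those above the filter in both genotypes, 11 of 14, 9 of 12 and 12 of 15 were below 0. ARF19 in cortex-like cells stood at 0.0190 and 0.0536 in lbd_quad, against 0.0712 and 0.328 in WT. The co-repressor TPR1 had 0.0657 and 0.118 in lbd_quad, against 0.215 and 0.386 in WT, in the endodermis-like class. Both are among the genes admitted through WT. LBD16, an ARF target that starts lateral roots, was admitted in phloem-like cells only through lbd_quad, at 0.242 and 0.293 in lbd_quad, against 0.0112 and 0.0808 in WT (log2 difference 1.37). LBD16 was highest in pericycle-like cells, where lateral roots begin, at 0.486 and 1.62 in lbd_quad, against 0.0938 and 0.440 in WT, and GATA23, which marks lateral root founder cells, stood there at 2.01 and 1.84, against 0.343 and 0.495. The first lbd_quad library has 13 pericycle-like cells, so that class was not tested, and GATA23 is among the leading genes of its cluster.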

How the data were processed

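Libraries were made from root tip protoplasts with 10x Genomics 3′ chemistry, per the labels' protocols, and the submitters' processing notes name Cell Ranger 7.0.1 and Seurat. The genome build is not given in the sources used here. The authors deposited 1 matrix of natural log values, ln(1 + UMIs per 10000 UMIs of the cell). Its names matched the 4 samples for 10529 cells, and 3315 columns matched no sample and were not used. UMIs recovered per cell came out whole within 0.01 for 100% of values. Cells needed 500 UMIs and 200 genes, which left out 0 cells. Scrublet marked 2 cells (0.019%), which were left out, and that share is too low for the caller to have worked, so doublets remain. The plan had allowed for log values, so no count model was used.

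Clusters (scanpy 1.11.5, 2000 variable genes, Leiden resolution 1) left out 75 auxin and LBD genes. A cluster was named when at least 3 markers of a class were raised 2-fold over the other cells and detected in 10% of its cells. Levels were averaged over cells per library, and tested with limma 3.58.1 (R 4.3.3, trend, two-sided) on log2(level + 0.1), for genes with a mean of at least 0.1, adjusted by Benjamini-Hochberg with a threshold of 0.05. A class was tested where each library gave it 20 cells or more. The members and lists were chosen with earlier results of these data known. Genes named with values in every library are members past the threshold, the 10 with the highest level, the 5 largest differences in each direction over all cells and the leading member of each class. Of the other pathway genes, those past the threshold and the largest difference in each direction among those whose libraries do not overlap are named. Other genes named, among them IAA6, IAA18, IAA20, IAA27, IAA29, IAA31, IAA33, GH3.5 and GATA23, were chosen after their values were seen. Reads shared by near-identical paralogs could be split between them, and how the authors' counting treated them is not stated. The limit of 3 UMIs covers counting error only. A gene is said to have reached the filter only through 1 genotype where the mean of the other was under 0.1.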

Additional observations from a re-analysis of the deposited data

Results flagged for a closer look

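The genotype difference of GH3.2, an auxin-conjugating enzyme gene, in endodermis-like minus phloem-like cells was 2.15 on the log2 scale (SE 0.43, limma, adjusted p 0.0454 over 9192 genes). It is listed because the difference between the classes was itself tested and passed. The 2 lbd_quad libraries lay above both WT libraries in endodermis-like cells and below both in phloem-like cells, where the lbd_quad values rest on 1 and 9 UMIs and the gene reached the level of 0.1 only through WT. The share of endodermis-like cells in the CASP cluster also differed between genotypes (48.8% and 25.2% in lbd_quad, against 4.63% and 14.3% in WT). With the makeup of each tested class held constant, the GH3.2 difference was 1.37 (adjusted p 0.387). The cause was not tested.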

How the results depend on the processing

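With 2 libraries a genotype, low levels limit what could be shown: the limit of 3 UMIs in a class ranged up to 0.0855 UMIs per 10000 in the classes tested. Over all cells, 0 members passed under each of the 13 alternatives, while the count over all genes, 37, went from 0 (no filter, or voom on recovered UMIs) to 506 with the replicate number as a block, and was 164 to 290 without a library. Same-numbered libraries deviated together over genes (correlation 0.514), but 2 pairs and labels that name no shared batch do not show that the numbers pair the libraries. With that replicate block 3 members passed in cortex-like cells (IAA19, adjusted p 0.00194, GH3.2, 0.0144, and GH3.17, 0.0378). It passed 2 in phloem-like cells, GH3.3 and IAA27, and 0 over all cells or in endodermis-like cells. IAA27 reached the filter in phloem-like cells only through lbd_quad, so its test there is not read. In endodermis-like cells the calls of IAA28, IAA14 and IAA1 changed when 1 lbd_quad library was left out. Such fits leave 1 mutant library, and IAA14 and IAA1 were admitted through WT, so these calls are not read. Between classes, 1 member passed for cortex-like minus endodermis-like with a pseudocount of 1 (GH3.2, -0.76, adjusted p 0.014) and 1 for cortex-like minus phloem-like without a filter (IAA27, which then also passed for endodermis-like minus phloem-like in place of GH3.2). For endodermis-like minus phloem-like, 0 passed at resolution 2 or with the makeup of classes held constant, and 0 to 1 without a library. GH3.2 there was 2.15 without a filter (adjusted p 0.135), 1.05 at resolution 2 (adjusted p 0.774) and 0.64 with a pseudocount of 1 (adjusted p 0.0299). GH3.2 turned sign for cortex-like minus phloem-like, at -0.12 (pseudocount 1), -0.61 (resolution 2), and -0.07 (makeup held constant), and ran over -0.55 to 0.71 without a library. The cause was not tested.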
